A study of Mus musculus with 16 samples.

Results

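The TRAV13 family of mouse T cell receptor (TCR) alpha chain (TRA) V segments has 5 members, TRAV13-1 to TRAV13-5. Cells were assigned to a member by the V segment name of their TRA chain with the most unique molecular identifiers (UMIs), after the letters D and N and the DV suffix of duplicated copies were removed. The family held 359 of 4935 cells with a TRA chain, which made it the 6th most frequent of 19 TRAV families, and it held 211 paired clonotypes (7th of 19). A paired clonotype is a set of cells of 1 library with the same V, J and complementarity-determining region 3 (CDR3) nucleotides in both chains, and it is called expanded when it holds 2 or more cells. TRAV13-1 was seen in 149 cells, TRAV13-3 in 87, TRAV13-2 in 85 and TRAV13-4 in 38, while no cell had a TRAV13-5 chain.

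The study examined Matr3 in the T cells of mouse liver tumours. The left liver lobe of C57BL/6 animals received Hepa1-6, a mouse hepatoma cell line, and tumour-infiltrating cells were taken on day 5 or day 14. Control libraries (CON) carry the genotype CD4creMatr3WT/WT and KO libraries CD4creMatr3fl/fl, so both carry the Cre transgene and only KO has floxed Matr3, the gene of a nuclear matrix protein that binds RNA. A Cd4-driven Cre acts in developing T cells before the CD4 and CD8 lineages part, so the deletion is not limited to CD4+ cells. Of 16 samples, 8 are TCR libraries with 2 in each of 4 groups (day 5 CON, day 5 KO, day 14 CON and day 14 KO), and the 8 single-cell RNA libraries were not analysed here. Separate mice behind the paired libraries of a group are not stated in the labels, and p-values therefore cover the spread from library to library alone, part of which may be technical.

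A library held 388 to 1236 cells with a TRA chain and 7683 to 31936 UMIs in productive chains, with a median of 3 to 5 UMIs for a TRA chain. Invariant natural killer T (iNKT)-type cells, defined by TRAV11 joined to TRAJ18, made up 25.7% to 30.2% of TRA cells at day 5 and 3.18% to 5.80% at day 14, so the shares of all other segments are diluted more at day 5. Possible doublets, here barcodes with at least 2 productive TRB chains or at least 3 TRA chains, made up 1.33% to 3.92% of cells. Of the cell barcodes, 21 occurred in 2 or more libraries, 3 of them with a TRAV13 cell, and none had the same TRA CDR3 in both. Receptor contigs hold neither Matr3 nor markers of other cell types, so the deletion and the labelled cell type could not be checked.

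A TRA chain is made in the thymus by joining a V segment to a J segment (TRAJ), and the alpha chain then pairs with a beta chain (TRB). The CDR1 and CDR2 loops are encoded in the V segment and mostly touch the presenting molecule, while CDR3 spans the V to J junction and mostly touches the peptide. Joining on 1 chromosome can be repeated, and each repeat uses a V segment farther upstream and a TRAJ farther downstream. The C57BL/6 locus carries large duplications of its V segments, whose copies are marked D and N, with D farthest from the TRAJ segments. The T cells of a clone share their junctions, so the number of cells behind a V segment reflects both how many clones use it and how large these are.

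The annotation (RefSeq, GRCm38.p6, a patch of the GRCm38 build that the submitters' processing notes name) lists 13 TRAV13 segments on chromosome 14, all V segments of the TRA locus, and 10 of the 13 were seen. The D copies lie between 52851355 (start of TRAV13D-1) and 53073275 (end of TRAV13D-4), the N copies between 53162399 (TRAV13N-1) and 53364106 (TRAV13N-4), and the copies without a letter between 53545014 (TRAV13-1) and 53795963 (TRAV13-5). TRAV13N-2 (53253792 to 53254317), TRAV13-5 (53795455 to 53795963) and the TRAV13-3 copy without a letter (53729558 to 53730074) were in no cell, so every TRAV13-3 chain came from TRAV13D-3 or TRAV13N-3. With 0 TRAV13-5 cells, its share in a library could be at most 0.243% to 0.773% (3 cells of the library's TRA cells, counting error only).

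The CDR1 sequences below show how the copies that were seen differ in the part that contacts the presenting molecule. Capitals mark bases that differ from TRAV13-1. TRAV13D-1 and TRAV13N-1 had the CDR1 of TRAV13-1, TRAV13-4-DV7 and TRAV13D-4 that of TRAV13-2, and TRAV13D-3 that of TRAV13N-3.
TRAV13-1: acatctttgaacagt
TRAV13-2: TcCAcAGCAaCcCgG
TRAV13D-2: TcCAcAGCAaCcCAG
TRAV13N-3: acaActttgaacagt
TRAV13N-4: aTCtTtACAaacCAG
TRAV13-1 and TRAV13N-3 chains thus differed at 1 CDR1 base, while TRAV13-2 differed from TRAV13-1 at 10 of 15 and TRAV13N-4 at 9. Merging by number joins TRAV13-4-DV7 and TRAV13N-4 under TRAV13-4 although their V regions (the frameworks and the first pair of loops) differ at 22 of 258 bases, whereas TRAV13-2 and TRAV13-4-DV7 differ at 10. The CDR2 of TRAV13-3 was 18 bases long and that of TRAV13-1 was 15.
CDR2 of TRAV13-1: aatccttctgggaca
CDR2 of TRAV13N-3: agtccttcttgggcagag

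The copies that were seen can be told apart by fixed bases outside CDR3. The V regions of the pair of names with most chains under TRAV13-2 and of a pair under TRAV13-1 are given from the first framework to the base before CDR3, as read in the contigs, because the copy results rest on these names. Capitals mark the bases at which the members of a pair differ.
TRAV13-2: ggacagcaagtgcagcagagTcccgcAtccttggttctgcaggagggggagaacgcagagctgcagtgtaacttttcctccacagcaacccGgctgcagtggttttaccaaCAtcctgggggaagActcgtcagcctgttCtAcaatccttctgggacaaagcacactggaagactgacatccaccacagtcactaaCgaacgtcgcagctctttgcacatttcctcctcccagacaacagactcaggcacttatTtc
TRAV13D-2: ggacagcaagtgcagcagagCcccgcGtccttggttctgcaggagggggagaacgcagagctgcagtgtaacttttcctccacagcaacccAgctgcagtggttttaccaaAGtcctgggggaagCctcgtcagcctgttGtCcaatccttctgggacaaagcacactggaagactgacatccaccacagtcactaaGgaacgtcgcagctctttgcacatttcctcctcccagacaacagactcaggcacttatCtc
TRAV13-1: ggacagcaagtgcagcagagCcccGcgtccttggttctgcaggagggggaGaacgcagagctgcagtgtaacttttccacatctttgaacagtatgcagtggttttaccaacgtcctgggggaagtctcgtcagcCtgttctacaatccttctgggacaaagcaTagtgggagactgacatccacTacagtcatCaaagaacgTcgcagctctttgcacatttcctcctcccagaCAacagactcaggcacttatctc
TRAV13D-1: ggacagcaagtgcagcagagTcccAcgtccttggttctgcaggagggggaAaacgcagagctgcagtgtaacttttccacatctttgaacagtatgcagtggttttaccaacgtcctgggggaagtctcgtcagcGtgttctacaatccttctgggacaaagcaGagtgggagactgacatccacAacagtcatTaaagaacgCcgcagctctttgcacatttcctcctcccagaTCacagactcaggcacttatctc
Either pair differed at 10 of 258 bases (96.1% identity), and the sequence shown was that of 24 of 24 TRAV13-2, 67 of 68 TRAV13D-2, 110 of 110 TRAV13-1 and 22 of 22 TRAV13D-1 chains. The 1 TRAV13D-2 exception, in day 14 CON replicate 2, had a V region of 255 bases and rested on 2 UMIs. Its CDR1 residues were ISTNQ, against STATQ in the other 67 chains, and its CDR2 residues IPGMK. Its name is therefore not secure, though it was kept among the 68. TRAV13D-1 and TRAV13N-1 differed at 1 base, as did TRAV13D-3 and TRAV13N-3, so single chains of these pairs are assigned less securely. TRAV13N-2 was in no cell and could not be compared with TRAV13D-2. Whether some chains named TRAV13D-2 come from TRAV13N-2 was not checked. The cell number, distance and TRAJ use given below for TRAV13D-2 rest on that name.

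TRAV13-1 was the most frequent member in clonotypes (104, 8th of 47 TRAV segments) and was present in every library. At day 5 it held 4.32% and 2.76% of TRA cells in CON replicates 1 and 2 and 3.08% and 4.64% in KO. At day 14 it held 3.88% and 1.38% in CON and 1.99% and 2.22% in KO. The days overlapped, with means of 3.70% ± 0.917 (SD, n = 4) for day 5 and 2.37% ± 1.07 (SD, n = 4) for day 14. The high day 14 CON value fell to the level of the others when each clonotype was counted once, at 2.72% and 2.85% of clonotypes in CON and 3.40% and 3.22% in KO.

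TRAV13-2 held 61 clonotypes, and its share of cells was much alike in all groups. At day 5 it held 2.59% and 1.63% of TRA cells in CON and 1.90% and 1.03% in KO, and at day 14 it held 1.38% and 2.07% in CON and 1.79% and 1.71% in KO. Counted once per clonotype, day 14 KO libraries stood at 3.40% and 2.63% and day 14 CON libraries at 1.36% and 1.58%. By that measure 21.9% of the 32 TRAV segments tested, TRAV13-2 included, were higher in both day 14 KO libraries, and 15.6% were lower. In CON, 11 of 17 and 11 of 15 day 14 TRAV13-2 cells belonged to 1 clonotype in each library, while the KO libraries had no TRAV13-2 clonotype above 2 cells.

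TRAV13-3 was rare in clonotypes (12 in all, 41st of 47 segments) but reached the highest share of any member in 1 library. It was 0.432% and 0% of TRA cells in day 5 CON and 0.237% and 1.29% in day 5 KO. At day 14 it was 0.243% and 0% in CON and 0% and 12.97% in KO, where the high value is replicate 2 (76 of 586 cells, exact binomial 95% interval 10.36% to 15.96%). The 0 of 502 cells in day 14 KO replicate 1 allows up to 0.598%, the 0 of 615 in day 5 CON replicate 2 up to 0.488% and the 0 of 723 in day 14 CON replicate 2 up to 0.415%. By clonotypes the high library held 3 of 342 (0.877%), below day 5 KO replicate 2 with 5 of 371 (1.35%).

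TRAV13-4, with 38 cells in 34 clonotypes, was the only member whose shares of cells did not overlap between the days. It was 0.864% and 1.14% in day 5 CON and 1.66% and 1.03% in day 5 KO, against 0.485% and 0.692% in day 14 CON and 0.199% and 0.683% in day 14 KO. All 4 day 14 libraries lay below all 4 day 5 libraries, also without iNKT-type cells. Of the 32 TRAV segments with 40 or more cells, to which TRAV13-4 does not belong, 3.12% were lower at day 14 with no overlap (9.38% without iNKT-type cells) and 6.25% were higher. Counted once per clonotype the days overlapped, with 0.915% to 1.72% at day 5 and 0.377% to 1.17% at day 14. In a fit without a filter on low counts it stood at -1.16 on the log2 scale with an SE of 0.51, and its adjusted p from edgeR was 0.252 over 124 segments, of which 5.65% were called.

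**Figure D1:**
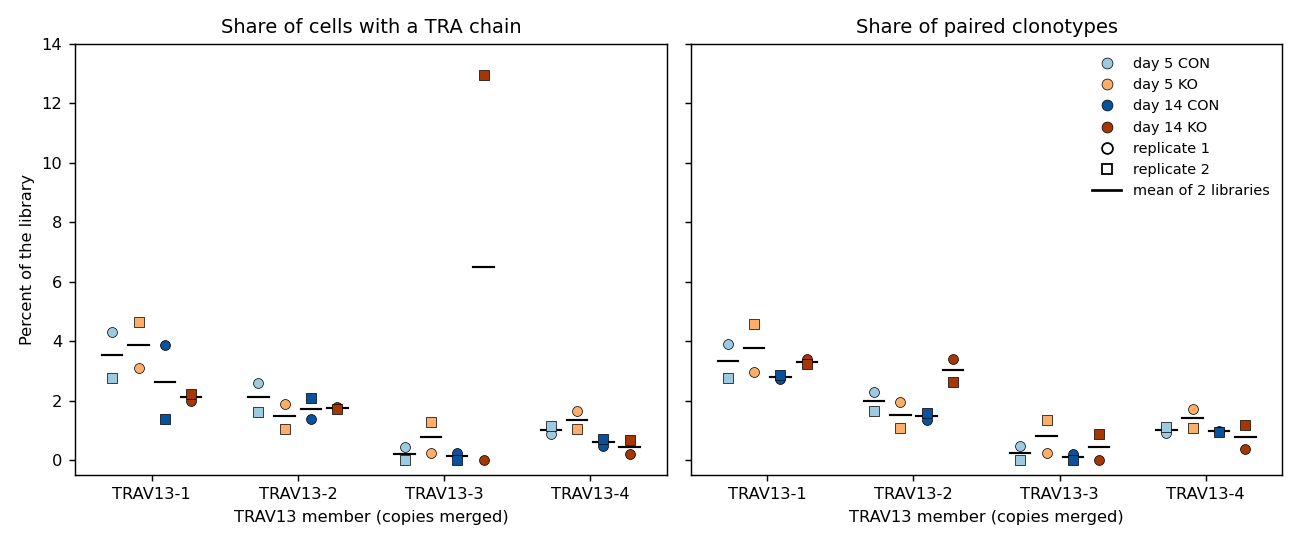
Share of each TRAV13 member in each library, in percent of cells with a TRA chain (left) and of paired clonotypes (right). Circles are replicate 1, squares replicate 2, colours the 4 groups and black lines means of 2 libraries. TRAV13-3 reaches 12.97% of cells in day 14 KO replicate 2 and 0.877% of its clonotypes.

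The whole family held 8.21% and 5.53% of TRA cells in day 5 CON, 6.87% and 7.99% in day 5 KO, 5.99% and 4.15% in day 14 CON, and 3.98% and 17.6% in day 14 KO. The day 14 mean exceeded the day 5 mean by 0.775 percentage points (7.92% ± 6.50 against 7.15% ± 1.23, SD, n = 4 each), less than the spread between libraries. That difference turned to -2.44 points without day 14 KO replicate 2, to -0.581 with each clonotype counted once and to -1.77 without iNKT-type cells. The KO minus CON difference at day 14 was 5.71 points (10.8% ± 9.61 against 5.07% ± 1.30, SD, n = 2 each). It was -1.08 points without day 14 KO replicate 2 and 12.5 without day 14 KO replicate 1. In clonotypes the family was 7.17% and 7.90% in day 14 KO and 5.24% and 5.38% in day 14 CON. At day 5 the groups overlapped (6.88% and 8.09% in KO, 7.55% and 5.50% in CON). Among single TRAV segments a separation at day 14 was common by this measure. Of 32 segments, 21.9% were higher in both KO libraries than in both CON libraries and 15.6% were lower. The share of whole families that separated was not counted.

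The comparison of the days asked which segments changed as the infiltrate went from day 5 to day 14. None of the 3 members with 40 or more cells (TRAV13-1, TRAV13-2 and TRAV13-3) changed past an adjusted p of 0.05 in edgeR's quasi-likelihood test, which called 7.14% of 98 segments, while DESeq2 called 6.12% and no member. TRAV13-1 had a log2 fold change, day 14 over day 5, of -0.63 ± 0.44 (SE, adjusted p = 0.431), TRAV13-2 one of -0.02 ± 0.44 (adjusted p = 0.971) and TRAV13-3 one of 1.37 ± 1.63 (adjusted p = 0.655). Without iNKT-type cells TRAV13-1 had -1.06, with an edgeR adjusted p of 0.231, and over all alternatives that p ran from 0.101 to 0.730. In clonotypes without the iNKT type, TRAV13-1 was 3.81% to 6.64% at day 5 and 2.94% to 3.64% at day 14. TRAV13-4 was 1.52% to 2.46% and 0.405% to 1.27% in the same order. The days thus did not overlap for these 2 members, while 3.12% of the 32 TRAV segments, which is TRAV13-1 alone since TRAV13-4 is not among the 32, were lower without overlap by that measure and 9.38% were higher.

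The comparison of KO with CON asked whether libraries with floxed Matr3 differed in segment use. For day 5, 0% of the 98 segments were called by edgeR and 0 by DESeq2, and 0 had an unadjusted p below 0.05. TRAV13-1 had a log2 fold change, KO over CON, of 0.13 ± 0.62 (SE), TRAV13-2 of -0.50 ± 0.63 and TRAV13-3 of 1.86 ± 2.31, each with an edgeR adjusted p of 0.979. The TRAV13-3 value rests on 6 KO and 2 CON cells, a ratio of shares of 3.99 with an exact counting interval of 0.714 to 40.5.

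For day 14 the result was again 0% of 98 segments by edgeR, with 11 at an unadjusted p below 0.05, and 0 by DESeq2. TRAV13-3, the 1 member among those 11, differed most among the members, by 5.31 on the log2 scale with an SE of 1.84 and an edgeR adjusted p of 0.287, and was higher in 1 of 2 KO libraries. The pooled share in KO (76 of 1088 cells) was 45.6 times that in CON (3 of 1959), with an exact counting interval of 15.0 to 226.1, which leaves out the spread between libraries. TRAV13-1 had -0.34 ± 0.62 (adjusted p = 0.790) and TRAV13-2 0.04 ± 0.59 (adjusted p = 0.973). Without day 14 KO replicate 1, the library with no TRAV13-3 cell, TRAV13-3 had 6.28 and an edgeR adjusted p of 0.0410, in a fit that called 2.11% of 95 segments and took the lone KO library to vary like the other groups. Without day 14 KO replicate 2 it fell under 40 cells and was not tested. Its adjusted p ranged from 0.0410 to 0.832 over 16 alternatives.

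Counted once per clonotype, TRAV13-1 and TRAV13-2 were higher in both day 14 KO libraries than in both day 14 CON libraries, and 21.9% of the 32 TRAV segments were, these 2 included. TRAV13-2 then had a log2 fold change of 1.02 (edgeR adjusted p = 0.506), against 0.04 in cells. TRAV13-1 had 0.25 (adjusted p = 0.983), against -0.34 in cells, and 0.60 in cells without day 14 CON replicate 1 (adjusted p = 0.621). The KO effect did not differ between the days past the threshold for any member: edgeR called 0% of 98 segments for this interaction and DESeq2 0%, with 4 at an unadjusted p below 0.05 in edgeR. The interaction log2 values were -0.47 ± 0.87 (SE) for TRAV13-1, 0.54 ± 0.87 for TRAV13-2 and 3.45 ± 3.39 for TRAV13-3, each with an adjusted p of 0.901.

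At day 14, 65.0% of paired TRAV13 cells were in expanded clonotypes (62.9% of other non-iNKT-type cells), and at day 5 it was 8.66% (9.24% of the others). Of 211 TRAV13 clonotypes, 194 were single cells, 12 held 2 to 9 cells and 5 held 10 or more, and these 5 were all from day 14 and together held 128 of 350 paired TRAV13 cells. The largest at day 5 held 3 cells. At day 5, 4.13% of TRAV13 clonotypes and 2.96% of the other non-iNKT-type clonotypes were expanded. At day 14 the figures were 13.3% and 22.2%. Day 14 KO replicate 1 had 19 TRAV13 clonotypes and none was expanded, while 21.9% of its other non-iNKT-type clonotypes were. No TRAV13 clonotype, and none of the 217 distinct TRAV13 TRA CDR3 amino acid sequences, occurred in 2 libraries.

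**Figure D2:**
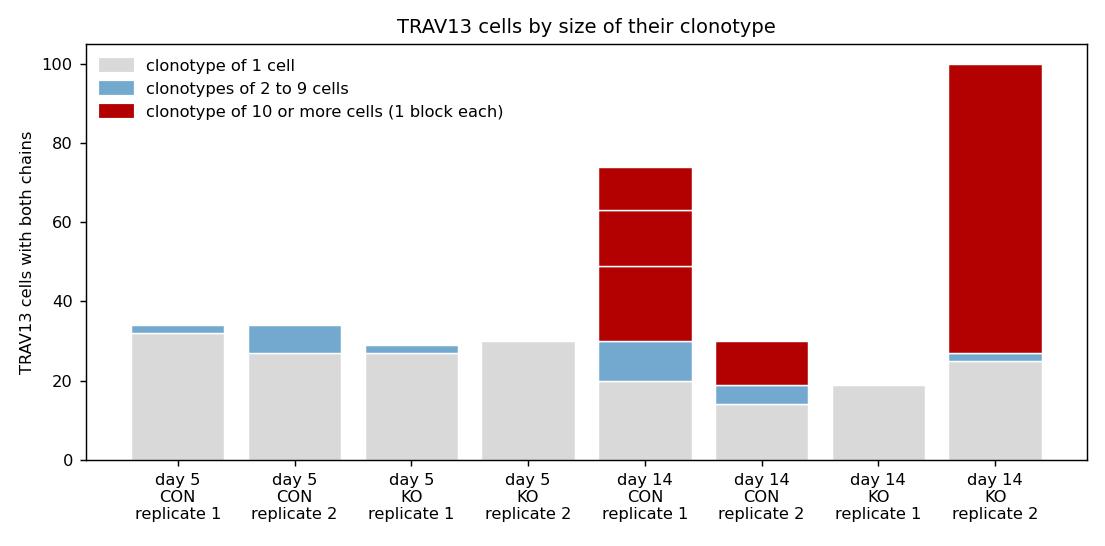
Numbers of paired TRAV13 cells per library, split by the size of their clonotype. Each red block is 1 clonotype of 10 or more cells, the largest with 73 cells in day 14 KO replicate 2. The lower pair of red blocks in day 14 CON replicate 1 (19 and 14 cells) shares 1 alpha chain.

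The junctions of the large clones are shown because these clones hold most of the cells of at least 1 member in day 14 CON replicates 1 and 2 and day 14 KO replicate 2. Each line gives the CDR3 of 1 chain, and capitals mark bases of the junction that fewer than 3 other chains of the same V segment (read from the left) or of the same J segment (read from the right) share.
KO replicate 2 TRAV13N-3 TRAJ50: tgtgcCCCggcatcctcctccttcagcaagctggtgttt
KO replicate 2 TRBV13-1 TRBJ1-1: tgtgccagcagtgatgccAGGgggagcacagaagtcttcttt
KO replicate 2 TRAV6-6 TRAJ43, the further alpha chain of the same clone: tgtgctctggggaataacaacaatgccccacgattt
CON replicate 1 TRAV13-1 TRAJ32: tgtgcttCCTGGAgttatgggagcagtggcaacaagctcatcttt
CON replicate 1 TRBV13-1 TRBJ2-5: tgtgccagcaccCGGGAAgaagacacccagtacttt
CON replicate 1 TRBV29 TRBJ2-3: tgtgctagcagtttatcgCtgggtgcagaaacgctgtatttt
CON replicate 1 TRAV13D-2 TRAJ48: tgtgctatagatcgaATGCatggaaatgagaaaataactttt
CON replicate 1 TRBV16 TRBJ2-7: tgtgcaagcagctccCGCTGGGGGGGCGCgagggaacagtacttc
CON replicate 2 TRAV13D-2 TRAJ31: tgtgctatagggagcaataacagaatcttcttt
CON replicate 2 TRBV19 TRBJ2-4: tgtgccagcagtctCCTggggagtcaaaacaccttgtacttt
The alpha junctions of the TRAV13D-2 clone of CON replicate 2 and of the TRAV6-6 chain had no capital base. The beta junction with TRBV16 had 14 of 45. Bases of the D segment of a beta chain were not marked apart, so capitals do not compare alpha with beta junctions.

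The largest clone joined TRAV13N-3 to TRAJ50 and paired it with TRBV13-1 and TRBJ1-1. It was the largest clonotype of day 14 KO replicate 2, with 73 paired cells, 12.5% of that library's TRA cells and 96.1% of its TRAV13-3 cells. Its alpha chain was found in 83 cells of that library and in no cell of the other 7. In 53 of the 83 a productive TRAV6-6 to TRAJ43 chain was also present, with a median of 4 UMIs against 7 for TRAV13N-3, and in 9 cells it was the TRAV6-6 chain that stood for the cell. The authors' clonotype ID puts all 83 cells in 1 clonotype. Counting every productive TRA chain gave 85 TRAV13-3 chains in the library in place of 76 cells. A further 12 barcodes of the same library that were not called cells held this alpha chain.

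The TRAV13-1 clone of day 14 CON replicate 1 joined TRAV13-1 to TRAJ32 and had 2 beta chains. All 33 cells with this alpha chain carried both a TRBV13-1 to TRBJ2-5 chain (median 23 UMIs) and a TRBV29 to TRBJ2-3 chain (median 26 UMIs). The TRBV13-1 chain was assigned to 19 cells and the TRBV29 chain to 14, equal UMIs included, so that the clone counts as 2 paired clonotypes, while the authors' clonotype ID makes it 1. It accounts for 33 of 48 TRAV13-1 cells in that library. All 33 count as possible doublets by the number of TRB chains, and without possible doublets TRAV13-1 had a log2 fold change at day 14, KO over CON, of 0.74 (edgeR adjusted p = 0.584) in place of -0.34.

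**Figure D3:**
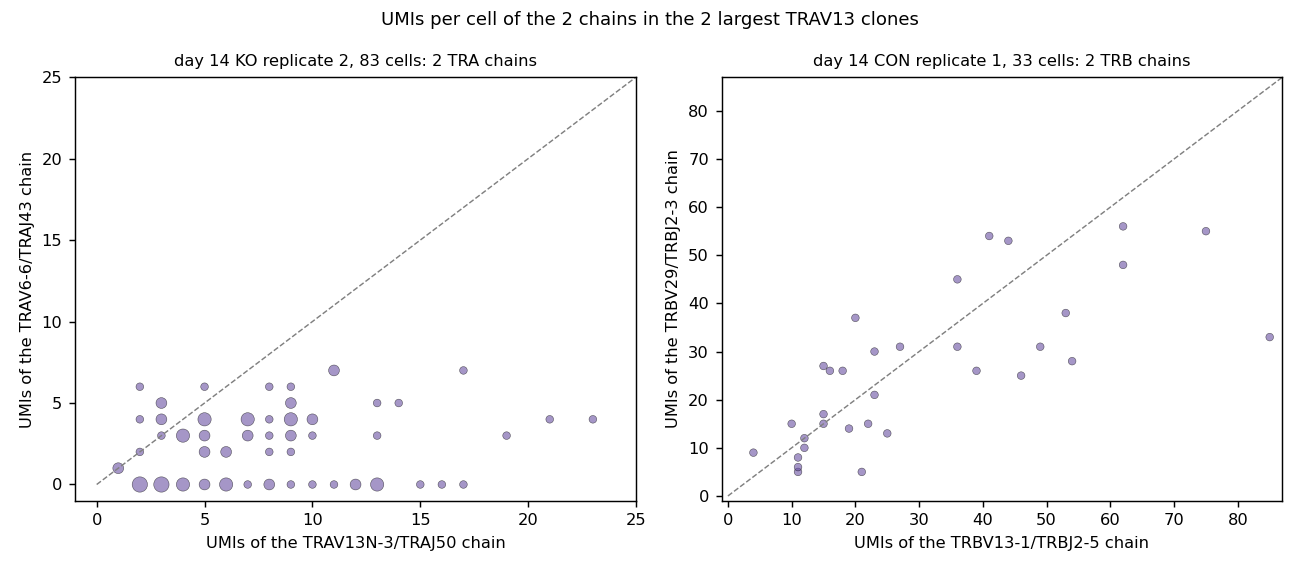
UMIs of the 2 chains of the same kind in each cell of the 2 largest TRAV13 clones, the TRAV13N-3 clone on the left (83 cells) and the TRAV13-1 clone on the right (33 cells). Point area gives the number of cells at a position and the dashed line equal UMIs. On the left 30 cells lie at 0 UMIs of the TRAV6-6 chain, while on the right every cell has both beta chains.

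The share of TRAV13 cells with a further chain varied between libraries. Of the 359 cells, 20.9% had 2 productive TRA chains, against 12.3% of the other non-iNKT-type cells, and the share was 45.6% in day 14 KO replicate 2 and 3.33% to 30% in the other 7 libraries. A second TRB chain was found in 11.7% of TRAV13 cells against 2.37% of the others. That share was 47.3% in day 14 CON replicate 1 and 0% to 9.68% elsewhere. Of the 75 TRAV13 cells with 2 TRA chains, 47 were from day 14 KO replicate 2, the library of the TRAV13N-3 clone. Of the 42 TRAV13 cells with a second TRB chain, 33 were the TRAV13-1 clone of day 14 CON replicate 1. Cells of 1 clone are not independent, and the pooled shares were not tested. Over all libraries 397 productive TRAV13 chains were read, of which 38 were not the chain assigned to their cell.

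The other large TRAV13 clones both used TRAV13D-2 and came from CON libraries. In day 14 CON replicate 1 a TRAV13D-2 to TRAJ48 chain paired with TRBV16 in 11 cells, the 13th largest clonotype of the library. In day 14 CON replicate 2 a TRAV13D-2 to TRAJ31 chain paired with TRBV19 in 11 cells, the 7th largest. Every cell with either alpha chain carried the 1 beta chain, and none was a possible doublet. No expanded TRAV13 clonotype was split over 2 copy names.

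The copies were used unequally within each member. TRAV13-1 chains came mostly from the copy without a letter (105 cells), with 23 from TRAV13N-1 and 21 from TRAV13D-1. TRAV13-2 chains came mostly from TRAV13D-2 (66 cells in 8 libraries) and less from TRAV13-2 (19 cells in 6 libraries). TRAV13N-3 (81 cells) stood above TRAV13D-3 (6), but 74 of the 81 were from day 14 KO replicate 2. TRAV13-4 chains came from TRAV13N-4 (22 cells), TRAV13-4-DV7 (14) and TRAV13D-4 (2). With copies kept apart, edgeR called 0% of 112 segments between KO and CON at day 5 and at day 14 and in the interaction, and none of the 3 tested TRAV13 copies (TRAV13-1, TRAV13D-2 and TRAV13N-3) in any comparison, the days included, where 7.14% were called. The smallest adjusted p of these copies from edgeR was 0.294, for TRAV13N-3 at day 14. This copy was in 74 of 1088 KO cells and 0 of 1959 CON cells. All 74 were from KO replicate 2, 73 of them in 1 clonotype, and KO replicate 1 held 0. The pooled KO share was at least 44.4-fold higher against a floor of 3 cells over the CON libraries. That ratio covers counting error only and leaves out the spread between libraries.

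The copies also differed in the codon that the V segment gives to the start of CDR3. Counting each distinct chain of a library once, the third codon was ttg in 62 of 68 TRAV13-1 chains but atg in 16 of 19 TRAV13D-1 and 18 of 22 TRAV13N-1 chains. Both copies of TRAV13-2 mostly had ata there, 15 of 19 for TRAV13-2 and 31 of 43 for TRAV13D-2. TRAV13-4-DV7 and TRAV13N-4 had atg in 10 of 14 and 14 of 18. In the TRAV13-1 clone of day 14 CON replicate 1 this codon already held junction bases, as the capitals of its sequence show.

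Copies far from the TRAJ segments were joined more often to the far end of the TRAJ array. TRAJ segments were classed as V-proximal (TRAJ40 to TRAJ61), middle (TRAJ19 to TRAJ39) and V-distal (TRAJ1 to TRAJ18), and each distinct chain of a library was counted once. TRAV13D-2 lies 1212 kb from the nearest TRAJ segment, and 25 of its 43 chains (58.1%) used a V-distal TRAJ and 2 a V-proximal one. TRAV13-2, at 520 kb, used a V-distal TRAJ in 0 of 19 chains, which allows up to 15.8%, and a V-proximal one in 10. Of the TRAV13-1 copies, TRAV13N-1 (992 kb) had 11 of 22 V-distal, TRAV13D-1 (1303 kb) 4 of 19 and TRAV13-1 (610 kb) 5 of 68. TRAV13N-4 (791 kb) had 6 of 18 and TRAV13-4-DV7 (397 kb) 0 of 14, which allows up to 21.4%. The order of distance was not the order of use throughout, since TRAV13D-1 is the farthest copy.

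**Figure D4:**
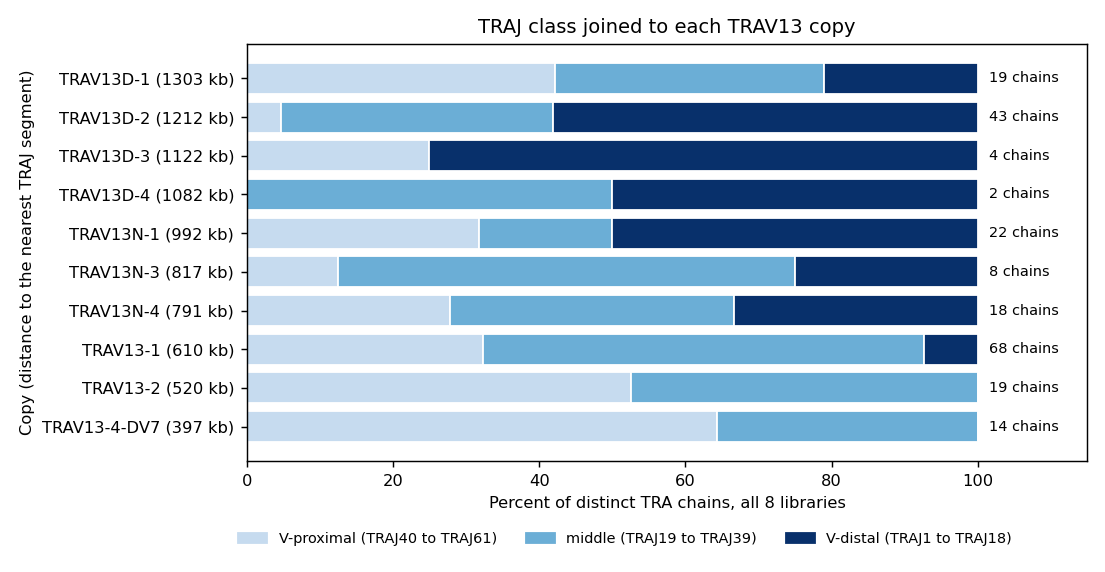
TRAJ class of the distinct TRA chains of each TRAV13 copy, in percent, ordered from the copy farthest from the TRAJ segments (top, distance in kb) to the nearest (bottom), with the number of chains at the right. The dark part, V-distal TRAJ, is 58.1% for TRAV13D-2 and 0% for TRAV13-2 and TRAV13-4-DV7.

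This contrast was tested within libraries, by a test chosen after seeing the data. For each TRAV segment with 40 or more chains and chains of both kinds in 6 or more libraries, the V-distal share of D and N copies minus that of the copy without a letter was compared with 0 by a two-sided exact permutation test that flips the sign of each library's difference, with Benjamini-Hochberg adjustment over the 23 segments. For TRAV13-2 the D copy was higher by 56.2 percentage points ± 12.8 (SD, n = 6) and in 6 of 6 libraries, with an exact p of 0.0312, the smallest that 6 libraries allow, and an adjusted p of 0.0653. For TRAV13-1 the D and N copies were higher by 31.4 points ± 24.8 (SD, n = 8) and in 7 of 8 libraries, with 15 of 41 chains against 5 of 68 (exact p = 0.0234, adjusted 0.0539). Neither passed 0.05, while 34.8% of the 23 segments did, and 21 of the 23 had a higher mean in D and N copies (median 27.1 points). TRAV13-2 could not have passed beside the p-values of the other segments, since its own was already the smallest possible. Its adjusted p therefore decides nothing. The test was first run with a minimum of 7 libraries, which left out TRAV13-2. TRAV13-1 then passed (exact test, adjusted p = 0.0422), as did 55.6% of 18 segments. With chains of 2 or more UMIs it also passed (29.9 points, exact test, adjusted p = 0.0382).

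Within TRAV13 as a whole, 33 of 68 chains of D copies (48.5%), 19 of 48 of N copies (39.6%) and 4.95% of those of copies without a letter used a V-distal TRAJ. For all other non-iNKT-type TRAV chains the values were 33.7% of 765, 31.2% of 337 and 14.1% of 1288. These shares pool libraries and were not tested. TRAV13-1 clonotypes had a V-proximal TRAJ in 33.6% ± 9.45 and TRAV13-2 clonotypes in 18.4% ± 10.7 (SD, n = 8 libraries). Against the other TRAV clonotypes of the same library, iNKT-type ones left out, the differences were 9.24 points for TRAV13-1 (higher in 5 of 8 libraries, exact sign-flip p = 0.0625, adjusted 0.162) and -6.38 for TRAV13-2 (higher in 1 of 8, exact p = 0.133, adjusted 0.266). That test called 0% of 26 TRAV segments, with 8 at an unadjusted p under 0.05. With iNKT-type clonotypes kept among the others, the differences were 14.1 points for TRAV13-1 and -1.55 for TRAV13-2 (exact test, adjusted p = 0.0703 and 0.826).

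The TRAJ and TRB partners of the family were many. The 217 distinct TRAV13 chains used 41 TRAJ segments, with TRAJ22 in 16, TRAJ31 in 13 and TRAJ15 and TRAJ40 in 10 each. The 211 clonotypes used 22 TRBV names, most often TRBV16 (17, in all 8 libraries), TRBV3 (16) and TRBV1 (15), and TRBJ2-7 in 53. In edgeR's quasi-likelihood test on clonotype counts with library as a block, 0% of 58 TRAJ, TRBV and TRBJ partners differed between TRAV13 and the other TRAV, with 4 at an unadjusted p below 0.05 and 0 called by DESeq2. Lowest in p were TRAJ27 (2.37% of TRAV13 and 7.18% of other clonotypes, log2 fold change -1.45 ± 0.62), TRAJ52 (4.27% and 1.78%, 1.27 ± 0.55) and TRAJ13 (3.79% and 1.57%, 1.24 ± 0.57), each SE from edgeR with an adjusted p of 0.700. TRAJ13 was the most frequent TRAJ of TRAV13-2 (7 of 62 chains) and TRAJ52 that of TRAV13-4 (4 of 34). With TMM factors TRAJ27 passed (-2.06, edgeR adjusted p = 0.0143), while TRAJ52 and TRAJ13 had 0.67 each (edgeR adjusted p = 0.445).

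Vbeta8 segments (TRBV13-1, TRBV13-2, TRBV13-3 and the joint name TRBV12-2+TRBV13-2) were in 22.4% ± 14.6 of TRAV13-1 clonotypes and 13.2% ± 13.2 of TRAV13-2 clonotypes (SD, n = 8). The differences from other TRAV were 1.82 points (higher in 4 of 8 libraries, exact p = 0.711) and -7.66 points (higher in 2 of 8, exact p = 0.188), each with an adjusted p of 0.979, and 0% of 26 segments were called, with 1 at an unadjusted p under 0.05. With iNKT-type clonotypes kept among the others, they were -8.25 and -17.5 points (exact test, adjusted p = 0.285 and 0.132). Expanded clonotypes were 7.57% ± 9.48 of TRAV13-1 and 7.06% ± 8.03 of TRAV13-2 clonotypes, with differences from the others of -4.77 points (higher in 4 of 8 libraries, exact p = 0.266, adjusted 0.460) and -5.27 points (higher in 1 of 8, exact p = 0.0625, adjusted 0.271). That test also called 0% of 26, with 3 at an unadjusted p under 0.05.

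The TRA CDR3 was on average shorter in the members tested than in other TRAV chains. Over all clonotypes the mean was 13.2 residues for TRAV13-1, 13.1 for TRAV13-2, 13.2 for TRAV13-3 and 13.7 for TRAV13-4, against 13.6 for the other non-iNKT-type clonotypes. Within libraries the difference was -0.5455 residues for TRAV13-2 (SD 0.316, longer in 1 of 8 libraries, exact sign-flip p = 0.0156, adjusted 0.0903) and -0.4143 for TRAV13-1 (SD 0.558, longer in 2 of 8, exact p = 0.0938, adjusted 0.188). The test called 0% of 26 segments, with 11 at an unadjusted p under 0.05. With iNKT-type clonotypes kept among the others, TRAV13-2 passed (-0.808, exact test, adjusted p = 0.0234), as did 40.7% of 27 segments, and TRAV13-1 did not (-0.680, adjusted p = 0.0527).

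Over the 8 libraries the share of TRAV13-1 ran most like those of TRAV14-3, TRAV16 and TRAV12-3, with root mean square differences of 0.37, 0.61 and 0.62 on the log2 scale after centring, against a median of 0.88 over 31 segments. TRAV13-2 was nearest to TRAV12-3, TRAV9-4 and TRAV16 (0.33, 0.39 and 0.48, median 0.82). TRAV13-3 had no near profile, its nearest being TRAV4-4 at 1.98, with a median of 2.51. On the same scale TRAV13-1 itself varied by 0.55 about its mean, TRAV13-2 by 0.35 and TRAV13-3 by 2.37. A flat profile would thus lie nearer to TRAV13-1 than TRAV16 and TRAV12-3 did. It would also lie nearer to TRAV13-2 than TRAV9-4 and TRAV16 did. All these distances are descriptions over 8 libraries that share their totals.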

How the data were processed

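Single-cell 5′ TCR libraries of 8 samples were used. The submitters' processing notes list the tools Seurat 4.0.0, R 4.1.2, Cell Ranger 3.1.0 and CASAVA 1.8 and the build GRCm38, with no role for any. The deposited contig tables hold whole-number counts of UMIs and reads per contig, not normalized, per the file headers. Another deposited value, contig length, was not used. Productive, high-confidence contigs of barcodes that the authors called cells were kept, and each cell was assigned its TRA and its TRB chain of highest UMI count, with ties broken by reads. Possible doublets were kept in the main analysis.

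Cells per segment were tested with edgeR 4.0.16 (R 4.3.3) across all 98 segments of 40 or more cells, with an offset of the number of TRA or TRB cells, 1 mean per group and Benjamini-Hochberg adjustment at 0.05. SE is the log2 fold change over the root of F, and DESeq2 1.42.0 was an alternative. Traits were tested over 8 libraries by two-sided exact sign flips, whose smallest p is 0.00781. The edgeR fit and the sign-flip test were also run on simulated data. For the sign flips these had fewer segments, a looser threshold and a larger difference than that seen in CDR3 length. They do not show how often the sign-flip test would miss a difference of the size seen here. Python 3.11.15, pandas 2.3.3, numpy 2.4.6 and scipy 1.17.1 were used. Intervals and floors (3 cells) cover counting error only. Replicate numbers were not used as pairs, since they carry no meaning in the labels.

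The members, lists and tests were chosen with earlier results of these data known. All 5 members and their copies, TRAV13 clonotypes of 10 or more cells, partners past the threshold or the 3 with the smallest p, and the 3 TRAV segments nearest in profile are named. TRAV copy names were matched to RefSeq by symbol, 10 of 10. V, CDR1, CDR2 and CDR3 sequences are from the contigs.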

Additional observations from a re-analysis of the deposited data

Results flagged for a closer look

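Of 24 sets of 4 libraries of 1 day (shares of each member and the family, in cells and clonotypes, and shares with a further chain), 3 had a library whose gap to the next exceeded the 95% limit of Dixon's test for 4 values. Chance flags about 5% of sets. TRAV13-3 was 12.97% of TRA cells in day 14 KO replicate 2 against 0% to 0.243% in the other day 14 libraries. The family was 17.58% in the same library against 3.98% to 5.99%. TRAV13 cells with 2 or more TRB chains were 47.3% in day 14 CON replicate 1 against 0% to 5.00%. The first 2 values contain the 73 cells of the TRAV13N-3 clonotype and the last the 33 cells of the TRAV13-1 clone.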

How the results depend on the processing

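Among alternative values of results that answer a comparison, 165 stayed within the set range (counts within 1.5 times the main count, family differences within 1 SD between libraries) and 6 did not. Within that range the family difference between days still turned from 0.775 to -0.581 with each clonotype counted once, -0.487 with the authors' clonotype ID and -1.77 without iNKT-type cells. The number of members called stayed 0 for KO against CON at day 5, for the days and for the interaction under every alternative run. For KO against CON at day 14 it stayed 0 under every alternative but the fit without KO replicate 1. That fit rests on 1 day 14 KO library and cannot decide whether a member passes. Partners called rose from 0 to 4 with TMM factors and to 2 with iNKT-type clonotypes kept. Members called for CDR3 length rose to 1 with iNKT-type clonotypes kept, and for the copy contrast to 1 with chains of 2 or more UMIs and to 1 with a minimum of 7 libraries. The family differences ran from -2.44 to 2.09 (days) and from -1.08 to 12.5 (KO minus CON at day 14) when 1 library was left out. Among alternative values of single results, 321 kept their direction and side of the threshold, 5 newly passed it and 23 turned in sign, none of them past the threshold in the main fit or after turning. TRAV13-1 at day 14, KO over CON, turned to 0.25 with each clonotype counted once, 0.31 with the authors' clonotype ID (an alternative chosen after seeing the data, as were fits of 1 day and all for the copy contrast) and 0.74 without possible doublets, and ran from -0.87 to 0.60 over libraries left out. Its interaction turned to 0.0553, 0.11 and 0.70 in the same order and ran from -1.01 to 0.47. TRAV13-1 at day 5 ran from -0.19 to 0.48. TRAV13-2 at day 14, KO over CON, turned to -0.11 with TMM factors, -0.0665 with chains of 2 or more UMIs and -0.0845 without possible doublets, and ran from -0.24 to 0.34. Between days TRAV13-2 turned to 0.0597 with TMM factors, 0.26 with each clonotype counted once and 0.29 with the authors' clonotype ID, and ran from -0.20 to 0.23. TRAV13-3 between days ran from -0.0423 without day 14 CON replicate 1 to 3.08 without day 5 CON replicate 1. In either fit the library left in that group held 0 TRAV13-3 cells (of 723 and of 615), so neither value is well determined. The TRAV13-1 difference in Vbeta8 share turned to -8.25 with iNKT-type clonotypes kept and ran from -1.45 to 4.53. The cause was not tested. With the replicate block 0 members were called in each of the 4 contrasts, and TRAV13-3 at day 14 had 4.27 (edgeR adjusted p = 0.436). Deviations of same-numbered libraries correlated at -0.12 to 0.07. With 2 libraries a group this cannot show whether the numbers mark anything shared. With 12 and 34 clonotypes, TRAV13-3 and TRAV13-4 stayed under the minimum of 40 and were not tested with each clonotype counted once.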

Other observations

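Rearrangements of TRAV13 that cannot make a chain were also read. A non-productive TRAV13 contig was found in 207 of 5908 cells (3.50%), from 1.89% in day 14 KO replicate 2 to 4.50% in day 5 KO replicate 1. A TRAV13D-3 to TRAJ13 rearrangement was in 27 cells of day 14 CON replicate 1, of which 19 belonged to a clonotype of 35 cells whose productive chains were TRAV10 with TRAJ9 and TRBV14 with TRBJ1-2. A TRAV13D-4 to TRAJ33 rearrangement was in 11 cells of day 14 CON replicate 2, all 11 in a clonotype of 12 cells with TRAV7-2 and TRBV5. TRAV13D-3 and TRAV13D-4, rare among productive chains with 6 and 2 cells, were thus read in more cells as a silent rearrangement of 1 clone than as the productive chain.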
